A study of Mus musculus with 2 samples.

Results

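The cells described here are 409 non-contractile fibroblasts of mouse pancreatic tumours that ranked highest for a set of universal fibroblast genes. They were chosen from a tumour library of 2942 cell barcodes, 1 of 2 libraries with 8379 barcodes in all, of which 2573 tumour cells and 7189 cells overall passed filters on genes, reads and mitochondrial share. Of the tumour cells, 2261 passed a fibroblast gate of at least 50 unique molecular identifiers (UMIs, each counting 1 captured RNA molecule) per 10000 for Col1a1, Col1a2, Col3a1, Dcn and Lum together, with limits on keratin, immune and endothelial genes. Another 340 of these were set aside for Thbs4 and 284 for the contractile sum of Acta2, Cthrc1 and Tnc, which left 1637 non-contractile fibroblasts. The members are the top 25% of those by the sum of Pi16, Dpp4, Cd34, Ly6c1 and Clec3b, and they made up 18.1% of the fibroblast gate and 15.9% of the filtered tumour cells. The other 1228 non-contractile fibroblasts are called the other cells below.

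The study profiled GFP-positive cells by 10x Genomics 3′ single-cell RNA sequencing in 2 libraries, 1 from normal pancreas and 1 from tumour. Both came from mice with the Rosa26-mTmG reporter, whose membrane signal turns from red to green after Cre acts, and with Fabp4-Cre, so every cell compared here carries both alleles. The normal library was sorted for GFP from pancreata of mice aged 6 to 9 weeks and is labelled as pancreatic stellate cells (PSCs). The tumour library was sorted for GFP and podoplanin (PDPN) from pancreata into which FC1245 pancreatic cancer cells had been implanted at 8 weeks of age and which were taken 21 days later, and it is labelled as cancer-associated fibroblasts (CAFs). The enzymes differed, being pronase, collagenase P and DNase for normal tissue and collagenase IV, dispase, DNase and then trypsin for tumours. Digestion, sort gate, age and disease therefore cannot be told apart between the libraries. The Fabp4 promoter is also active in adipocytes and endothelial cells, GFP records past rather than present Cre activity, FC1245 is a single cancer line, and the number of mice pooled is not given in the sources used here.

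Fibroblasts marked by Pi16 and Dpp4 occur in many organs, where they sit in the adventitia around vessels and are described as a universal, progenitor-like state that feeds more specialised fibroblasts. In pancreatic tumours, fibroblasts are commonly divided into inflammatory CAFs, which secrete interleukin 6, chemokines and complement, and myofibroblastic CAFs, which build contractile fibres and collagen in response to TGF-beta. Universal genes and inflammatory genes are often found in the same cells.

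With 1 library per group there are no replicates, so no test of a condition or a cell class was possible and no p-value is given. Levels are given as CPM, the usual depth-scaled counts, here the UMIs of a gene summed over a group of cells and divided by all UMIs of that group. The tumour library held 33285044 UMIs and the normal library 36675424. The members held 4350620 UMIs in all, and their median of 9458 per cell lay close to the 8676 of the other cells. Median depth was 26575.5 in contractile, 12230 in Thbs4 and 13078 in the matching normal cells. All intervals are 95% intervals of counting error and do not cover differences between mice. A gene was called higher or lower if the fold was at least 2, its interval excluded 1 and it reached 50 CPM in either group. The libraries shared 4 barcodes, none of them among the members. No Y-linked UMI was found in a member and 370 members had Xist UMIs, whereas 244 of the 372 matching normal cells had Y-linked UMIs.

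The score did not split the tumour fibroblasts into separate groups. The lowest members stood at 26.154 and 26.172 score UMIs per 10000, and the highest cells left out at 26.123 and 26.113. Within 10% of this limit there were 117 cells, 55 members and 62 other cells. Members had a median score of 40.9 and a highest score of 267.5, against a median of 9.36 in the other cells, 60 of the 1637 cells having no UMI of any of the 5 genes. The same rule applied to 1490 normal non-contractile fibroblasts gave 372 cells above 40.9 per 10000, and 571 normal cells lay at or above the tumour limit. The distribution of the score had a single broad hump in the tumour library, whereas the normal library had a dip of 45 cells between 41.97 and 51.09 per 10000 with 70 cells further up, between 62.20 and 75.72. The members are thus the upper end of a range of this score.

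**Figure D1:**
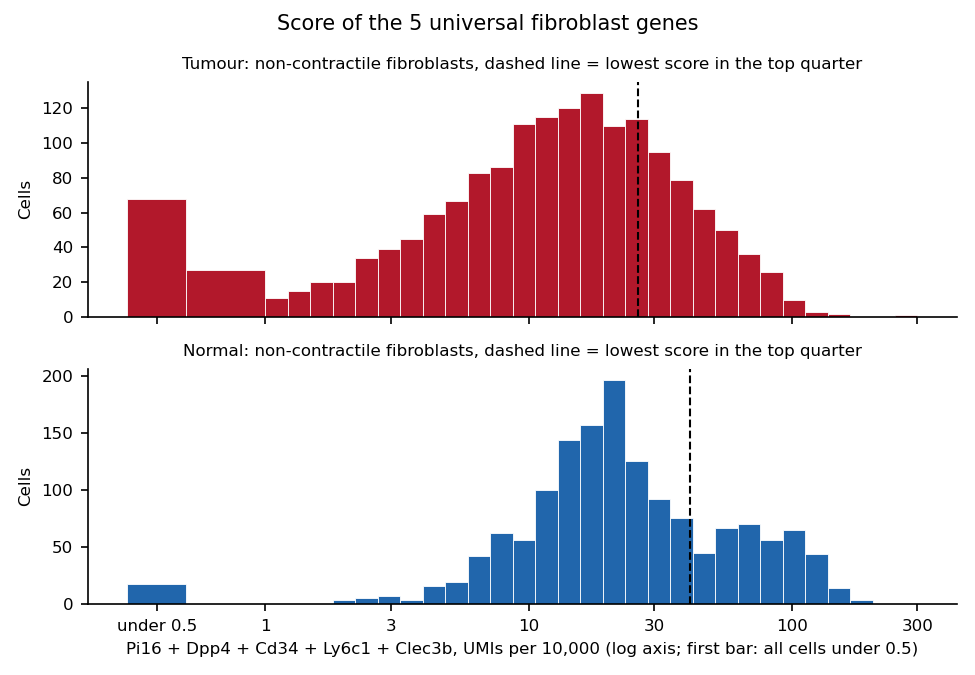
Histogram of the summed UMIs of the 5 score genes per 10000 (x, log axis) over cells (y) for the 1637 tumour and 1490 normal non-contractile fibroblasts; dashed lines mark the lowest score in each top 25%. The tumour line at 26.154 cuts through a continuous hump, and the normal line at 40.9 falls near a dip.

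The 5 score genes describe the choice and support nothing further. Pi16, a secreted peptidase inhibitor (GRCm38 chromosome 17, 29317680 to 29330593), was at 1885 CPM (1844 to 1926) in members and 287 CPM (278 to 297) in other cells. Ly6c1, a lipid-anchored surface protein, was at 1282 CPM against 165 CPM, and Clec3b, the plasminogen-binding protein tetranectin, at 1149 CPM against 281 CPM. Cd34, a sialomucin of stem and stromal cells, was at 432 CPM against 215 CPM, and Dpp4, a surface dipeptidase, at 128 CPM against 20.6 CPM. Pi16 supplied 38.7% of the score UMIs of the members, Ly6c1 26.3%, Clec3b 23.6%, Cd34 8.86% and Dpp4 2.62%. All 5 genes were detected together in 165 members and 4 of them in another 165, while 17 members rested on 2 of the genes and 1 member on 1. When members were chosen on a random 0.5 of the UMIs and measured on the rest, 357 of 409 were shared. On the UMIs not used for that choice Pi16 was 5.58-fold, Ly6c1 6.91-fold, Clec3b 3.67-fold, Dpp4 5.56-fold and Cd34 1.79-fold the level of the other cells.

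Dpp4 was the least regular of these markers. A Dpp4 UMI was found in 184 of the 409 members, 45.0% (40.1 to 50.0%, Clopper-Pearson), and in 92.5% (89.3 to 94.9%) of the matching normal cells. After each cell was thinned to 2500 UMIs, which left out 40 members and 3 normal cells as too shallow, the shares were 20.6% and 65.0%. In 91 immune cells of the tumour library, which should lack Pi16 and had a median of 5231 UMIs, the Pi16 share was 5.49%, against 95.1% in members. The Dpp4 share there was 6.59%, but some immune cells express Dpp4, known as CD26, so it is no background for this gene.

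Il6, which the working label counts among the markers of these cells, did not set them apart from the other tumour fibroblasts. Il6 encodes interleukin 6, the cytokine that defines inflammatory CAFs (chromosome 5, 30013114 to 30019981). Il6 was at 1246 CPM (1214 to 1280) in members and 1384 CPM (1364 to 1404) in the other cells, a log2 fold of -0.15. Thbs4 fibroblasts had 1494 CPM and contractile fibroblasts 858 CPM of Il6. An Il6 UMI was present in 83.9% (79.9 to 87.3%) of members and 83.0% (80.8 to 85.0%) of the other cells, with 17.6% in immune cells, and after thinning in 74.0% and 70.4%. Il6 was therefore a shared feature of tumour fibroblasts at these levels and not a mark of the members, and the label is used here for the 5 genes of the rule alone. In the top 50% by score the Il6 log2 fold was 0.08.

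Outside the rule, genes of the universal and adventitial programme were the group most often higher in members. Of 3074 genes measured against the other cells, 90 were called higher, 2.93% of those tested, and 108 lower, 3.51%, or 6.44% in either direction. The median log2 fold of all of them was -0.05. From the list of universal and adventitial fibroblast genes, 22 of 28 reached the level to be measured, and 18 of those were higher and none lower, with a median log2 fold of 1.45. The list was compiled with earlier results of these data known, and its genes are measured in the same cells that were ranked, so the count describes what travels with the score.

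Smpd3, which encodes neutral sphingomyelinase 2 (chromosome 8, 106252548 to 106337988), had the largest fold. It was at 324 CPM (307 to 341) in members and 21.7 CPM (19.2 to 24.4) in other cells, a 14.9-fold difference (13.1 to 17.0). A Smpd3 UMI was found in 36.7% of members and 5.13% of other cells, so the level came from a minority of members. Sema3c, a secreted semaphorin, was 10.8-fold higher (8.64 to 13.7), at 82.7 CPM against 7.64 CPM. Ackr3, a receptor that binds and removes the chemokine CXCL12, was 8.61-fold higher (7.88 to 9.41), at 448 CPM against 52.1 CPM, and was detected in 61.9% of members and 11.97% of other cells. Efemp1, the matrix protein fibulin-3 and counted in the inflammatory list described next, was found in 88.5% of members at 983 CPM against 213 CPM, 4.61-fold higher (4.40 to 4.84).

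Other secreted and surface proteins of the universal list were higher by smaller folds. Pcolce2, which enhances procollagen processing, was at 302 CPM against 60.8 CPM, Cd55, a complement-regulating surface protein, at 225 CPM against 51.1 CPM, and Col14a1, a collagen that coats fibrils, at 1276 CPM against 382 CPM. Ly6a, the stem cell antigen Sca-1, was at 2880 CPM against 1019 CPM, Cd248, endosialin, at 558 CPM against 220 CPM, and Il33, an alarmin cytokine of stromal nuclei, at 572 CPM against 232 CPM. The transcription factor genes Creb5 and Ebf2 were 3.21-fold and 2.64-fold higher. Another 4 genes of the list did not reach a fold of 2. Fbn1 had a log2 fold of 0.84, Procr 0.94, Igfbp6 0.59 and Mfap5 0.21. All 22 measured genes of the list lay above a fold of 1.

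Several of the genes with the largest folds were not on that list. Prg4, which encodes the lubricating proteoglycan lubricin, was at 159 CPM against 15.6 CPM, 10.2-fold higher (8.69 to 11.98), yet in 18.6% of members only. The immune cells of the tumour library had 280.5 CPM of Prg4, all from 3 of 91 cells. Edn1, the precursor of the vasoconstrictor endothelin-1, was at 103 CPM against 12.9 CPM and was detected in 13.9% of members. Cmah, an enzyme of sialic acid synthesis, was 8.24-fold higher (6.93 to 9.84), Pcsk6, a protease that activates growth factor precursors, 6.80-fold (5.82 to 7.97), and Slc4a4, a bicarbonate transporter, 4.67-fold (4.03 to 5.42). Sfrp4, a secreted Wnt antagonist, was 4.35-fold higher. Of the universal list, Anxa3, an annexin, and Nov, a matricellular protein of the CCN family, were 4.66-fold and 4.43-fold higher. Levels and folds of all measured genes are set against each other in the scatter plot of members against other cells.

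**Figure D2:**
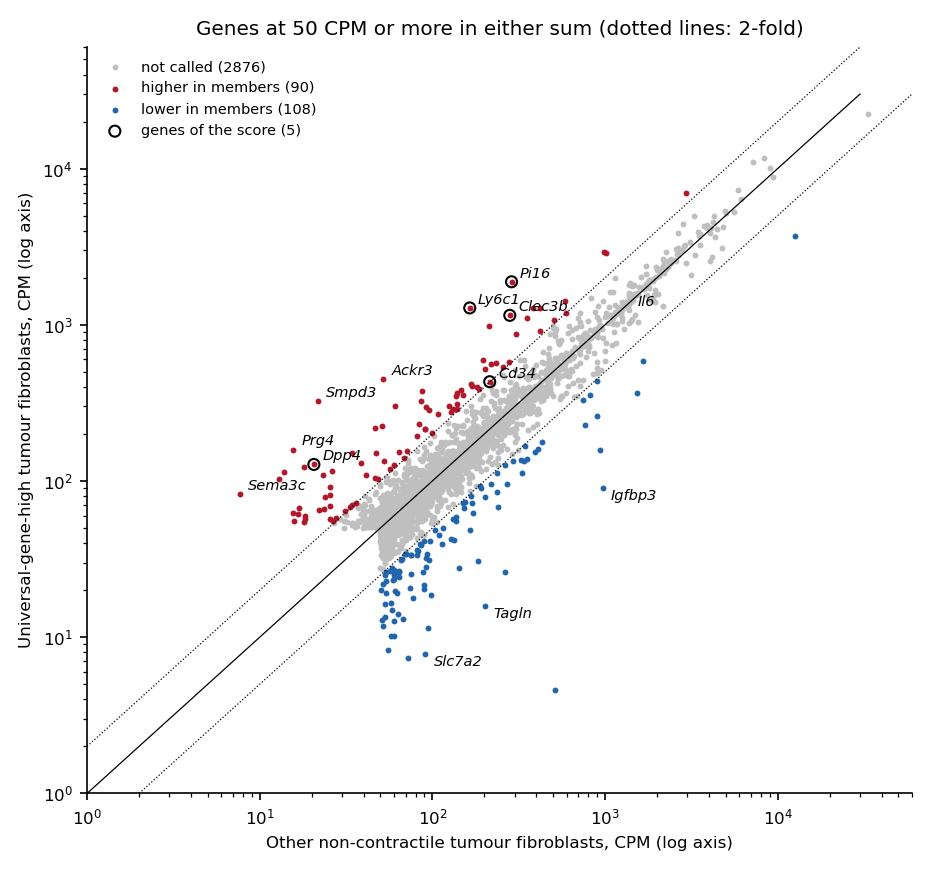
CPM of 3074 genes in the 409 members (y) against the 1228 other non-contractile tumour fibroblasts (x), both on log axes; dotted lines mark 2-fold, and circles the 5 genes of the score. Smpd3, Sema3c, Prg4 and Ackr3 lie far above the diagonal, Tagln and Igfbp3 far below it, and Il6 lies close to it at 1246 CPM against 1384 CPM.

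Inflammatory CAF genes were divided. All 20 genes of that list were measured, 7 were higher and 2 lower, and the median log2 fold was 0.47. The higher ones were Efemp1, Figf, Ptx3, Dpt, C3, Plpp3 and Cxcl12. C3, the central complement component, was the most abundant, at 6950 CPM against 2935 CPM, 2.37-fold higher (2.33 to 2.40). Ptx3, a secreted pattern recognition protein, was at 1283 CPM against 420 CPM, and Cxcl12, the chemokine that binds CXCR4, at 535 CPM against 256 CPM. Figf encodes the lymphatic growth factor VEGF-D and stood at 323 CPM against 86.2 CPM. The lower ones were the chemokine gene Cxcl14, at 157 CPM against 939 CPM, and Lif, a cytokine of the interleukin 6 family, at 73.6 CPM against 154 CPM. The Lif call ended under 6 of the 16 alternative settings planned for this comparison, which changed weighting, scaling, filters, cut or score, with log2 folds from -1.44 to -0.54. The Cxcl12 call ended under 4 of these settings, that of Plpp3 under 3 and that of C3 under 1.

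The acute inflammatory genes of the same list differed less. Cxcl1, a chemokine for neutrophils, had 3854 CPM in members and 2656 CPM in other cells, a log2 fold of 0.54. Ccl2, a chemokine for monocytes, had 1671 CPM and 1960 CPM, and Il1r1, the interleukin 1 receptor, had 166 CPM and 202 CPM. None of 10 measured IL-1, TNF and NF-kB response genes was called in either direction, with a median log2 fold of 0.02. Tnfaip6 had the highest fold among them at 1.76.

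Few complement and acute phase genes were called. Of 11 measured, Hp and C4b were called higher and none lower, with a median log2 fold of 0.67. Hp, the haemoglobin-binding protein haptoglobin, was at 419 CPM against 167 CPM, and C4b, a complement component, at 1183 CPM against 591 CPM, just past the limit with a fold of 2.00 (1.93 to 2.07). The C4b call ended under 8 of the 16 alternatives. C1ra, C1s1, Cfb and Lbp had folds between 1.59 and 1.85. In the list of interferon response and MHC class I genes 2 of 12, Ifit1 and Ifi27l2a, were higher, Ifitm1 was lower, and the median log2 fold was 0.58.

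Contractile and myofibroblastic genes were the main group at lower levels. The rule already limited the sum of Acta2, Cthrc1 and Tnc in both groups, so only the other genes are informative. Of 15 measured myofibroblastic CAF genes, 8 were lower, 1 was higher and the median log2 fold was -1.03. Tagln, the actin-binding protein transgelin (chromosome 9, 45929619 to 45936058), was at 15.9 CPM (12.3 to 20.1) in members and 201 CPM (194 to 209) in other cells, 12.7-fold lower (9.99 to 16.4). Igfbp3, a carrier of insulin-like growth factors, was at 90.3 CPM against 968 CPM, 10.7-fold lower (9.69 to 11.9). Des, Tpm2, Col8a1, Cnn2, Cald1 and Col12a1 were lower too, between 5.17-fold for the filament gene Des and 2.05-fold for Col12a1. The calls of Cald1 and Cnn2 each ended under 7 of the 16 alternatives and that of Col12a1 under 6. The exception was Fn1, fibronectin, at 2915 CPM against 987 CPM. Mylk, the kinase that triggers myosin contraction, was 6.03-fold lower (5.06 to 7.23), at 30.6 CPM against 184 CPM.

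The other cells included cells close to the contractile and Thbs4 classes. Clusters of the tumour fibroblasts, made without the 20 genes of the rule, placed 87 of the other cells and 1 member in the cluster holding most contractile cells, and 127 other cells and 11 members in the cluster holding most Thbs4 cells. Without those 2 clusters among the other cells, 4 of 14 measured myofibroblastic genes were lower and 2 higher, with a median log2 fold of -0.66, and of 23 universal and adventitial fibroblast genes 17 were higher and 1 was lower, the median being 1.26. Of the inflammatory CAF genes called above, C3, Cxcl12, Plpp3 and Lif were not called there, with log2 folds of 0.98, 0.73, 0.87 and -0.94. The others of that list kept their call. This comparison was chosen after seeing the data.

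TGF-beta ligands and targets were lower where they were called. Of 16 measured TGF-beta and activin genes none was higher and 4 were lower: the ligands Tgfb1 and Tgfb3 and the targets Ctgf and Wisp1. Tgfb1 was at 20.7 CPM against 74.0 CPM and Ctgf, connective tissue growth factor, at 135 CPM against 339 CPM. Without the 2 clusters above among the other cells, Ctgf alone of 13 measured was lower. Tgfb3 and Wisp1 had log2 folds of -0.53 and -0.72 there and were not called. Tgfb1 kept a log2 fold of -1.07, past 2-fold, but lay under 50 CPM in both groups and so could not be called. The receptor genes Tgfbr2 and Tgfbr3 had log2 folds of 0.62 and 0.85. The chemokine genes Cxcl5 and Cxcl13 and the growth factor genes Mdk and Ptn were also lower. The Cxcl13 call ended under 6 of the 16 alternatives, with a log2 fold of 0.22 in the top 50% by score. Those of Cxcl5 and Ptn each ended under 3 and that of Mdk under 1. Mdk and Ptn encode midkine and pleiotrophin, a pair of heparin-binding growth factors, and were at 68.5 CPM against 240 CPM and at 328 CPM against 744 CPM. Lpl, lipoprotein lipase, was at 582 CPM against 1661 CPM, and Timp3, an inhibitor of matrix proteases, at 260 CPM against 894 CPM.

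Most matrix and stress groups were not called. None of 11 basement membrane, 13 elastic fibre, 13 mesenchymal transcription factor, 21 immediate early or 14 heat shock genes was called in either direction, and the median log2 folds of these lists lay between -0.10 and 0.25. Eln, elastin, had 1117 CPM and 902 CPM, and Nid1, nidogen, 1197 CPM and 716 CPM. Among the small leucine-rich proteoglycan and hyaluronan genes, Prg4 and Ogn, which encodes osteoglycin, were higher, and among the proteases and inhibitors Adamts5, an aggrecanase, was. Fap, which encodes fibroblast activation protein, had 74.9 CPM in members and 74.5 CPM in other cells. Fos, an immediate early gene induced by tissue digestion, had 3646 CPM and 4359 CPM, and Hspa1a, a heat shock gene, 1057 CPM and 1413 CPM.

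Markers of other cell types were scarce in members. The rule already limited keratins, Ptprc, Pecam1 and Cdh5 in members and other cells, so low immune, endothelial and epithelial sums were partly set in advance. The 12 macrophage and monocyte markers summed to 9.19 CPM in members and 16.3 CPM in other cells, with Fcgr3 and Ccr2 at 0 in members. The 9 endothelial markers summed to 113 CPM and 245 CPM, mostly Eng, with Emcn, Esam, Cldn5 and Tie1 at 0. Acinar and endocrine markers summed to 35.9 CPM and 117 CPM. The 10 ductal or tumour epithelial markers summed to 36.5 CPM in members against 595 CPM in other cells, with Cdh1, Cldn4 and Tspan8 at 0 in members, and the gap came from Spp1, osteopontin, at 4.60 CPM against 514 CPM. Spp1 was at 2110 CPM in contractile and 1630 CPM in Thbs4 fibroblasts and at 3021 CPM in the immune cells. The 8 mesothelial markers summed to 206 CPM and 170 CPM, nearly all of it Wt1, with Msln, Upk1b, Lrrn4 and Muc16 at 0.

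The difference was graded along the score. The 1637 cells were divided by score into 4 bins of 409 or 410 cells, of which the members are the highest. Of the 22 measured universal and adventitial genes 20 had a higher level in each bin than in the one before, against 14.7% of all 3074 genes. Of the 15 myofibroblastic genes, 10 had a lower level in each bin than in the one before, against 19.9% of all genes. Smpd3 went from 1.85 to 12.1, 57.0 and 324 CPM from the lowest bin to the members. C3 went from 1577 to 2941, 4645 and 6950 CPM, and Ptx3 from 183 to 380, 763 and 1283 CPM. Igfbp3 went the other way, from 1875 to 604, 214 and 90.3 CPM. Il6 stayed within 1240, 1396, 1552 and 1246 CPM.

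The steps were unequal for other genes. Cxcl14 stood at 1127, 975 and 662 CPM in the lowest 3 bins and at 157 CPM in the members. Fn1 was lowest in the second bin, at 662 CPM, and highest in the members, at 2915 CPM. Ptn was highest in the second bin, at 982 CPM, and lowest in the members, at 328 CPM.

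**Figure D3:**
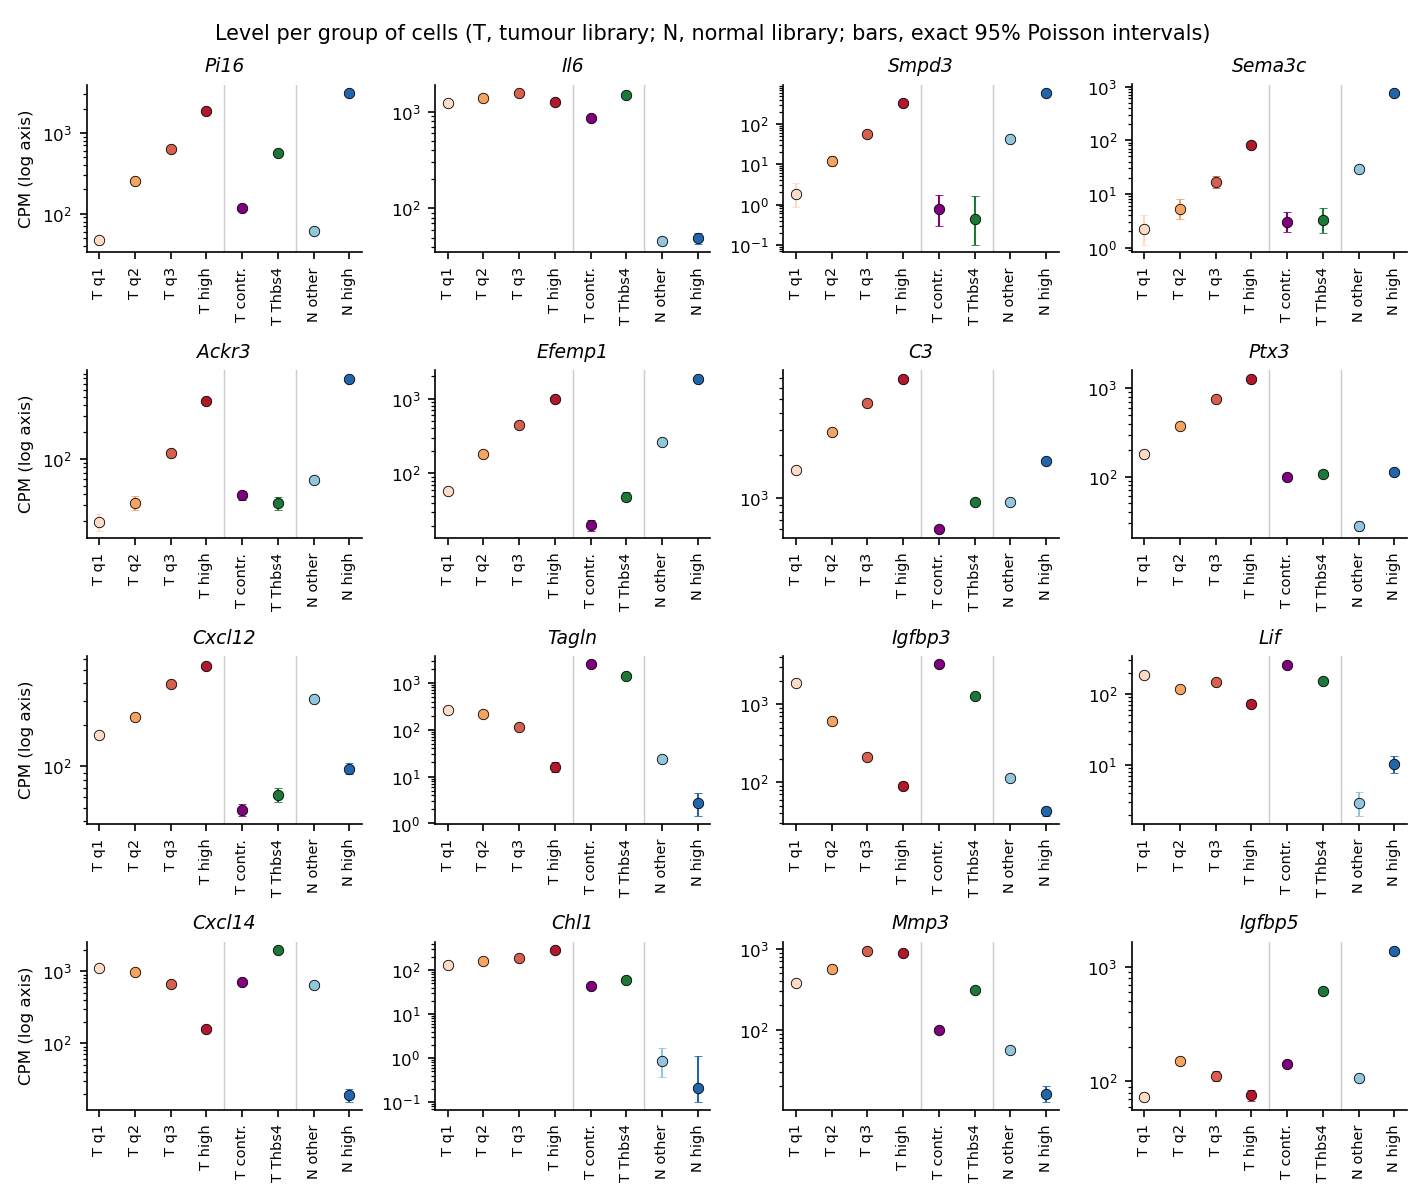
CPM (y, log axis) of single genes in the 3 lower score bins (T q1 to T q3) and the top bin (T high, the members) of tumour non-contractile fibroblasts by score, in contractile (T contr.) and Thbs4 tumour fibroblasts, and in the other and matching universal-gene-high normal fibroblasts (N other, N high); bars are exact Poisson intervals of 95%, drawn down to 0.1 CPM at the lowest. Smpd3 climbs from 1.85 to 324 CPM over the bins and Igfbp3 falls from 1875 to 90.3 CPM, while Il6 is at 1240 to 1552 CPM in these tumour bins and under 50 CPM in both normal groups.

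Universal genes were also higher, and myofibroblastic genes lower, than in the 2 other classes of tumour fibroblasts. Compared with 284 contractile cells, 367 of 3249 genes (11.3%) were called higher in members and 295 (9.08%) lower, or 20.4% in either direction. Here 20 of 22 universal genes were higher with a median log2 fold of 2.96, 9 of 11 complement genes were higher with a median of 2.21, and 17 of 19 myofibroblastic genes were lower with a median of -3.17. Compared with 340 Thbs4 cells, 247 of 3230 genes (7.65%) were higher and 248 (7.68%) lower. In that comparison 19 of 22 universal genes were higher and 14 of 18 myofibroblastic genes lower. Both classes were defined by genes the rule gates on, and the contractile cells had a median depth of 26575.5 UMIs against 9458 in members.

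Pi16 alone did not separate the members from the Thbs4 fibroblasts. A Pi16 UMI was found in 81.2% of Thbs4 cells at 557 CPM, and after thinning in 54.6% against 89.7% of members. Ly6c1, Clec3b and Dpp4 were at 56.0, 47.1 and 8.19 CPM in Thbs4 cells. Efemp1 was at 48.7 CPM and Smpd3 at 0.443 CPM there, the latter being 2 UMIs in the whole class.

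The members fell mainly into 2 expression clusters. Of the 8 clusters made without the genes of the rule, cluster 5 held 180 members, 44.0% of them, and cluster 1 held 147, or 35.9%. The remaining 82 members were spread over the other 6 clusters. Members made up 56.2% of the 320 cells of cluster 5 and 34.8% of the 422 cells of cluster 1, whose median depths were 16539 and 6823.5 UMIs per cell. Cluster 5 was led by Cxcl13, Smpd3, Edn1 and Prg4. Cluster 1 was led by Negr1, AW112010, Chodl and the heat shock gene Dnajb1. These genes define the clusters and are no result.

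The score genes were left out of clustering, but members of both clusters were chosen on their sum, so their levels are given as a description. Pi16 was at 1987 CPM in members of cluster 5 and 1814 CPM in members of cluster 1, Cd34 at 432 and 434 CPM, and Clec3b at 1247 and 1016 CPM. Ly6c1 was at 1568 CPM against 867 CPM. Dpp4 was at 175 CPM against 30.3 CPM, and was found in 74.4% of cluster 5 and 16.3% of cluster 1 members, or 29.5% and 11.7% after thinning. Il6 was at 1247 and 1298 CPM. Between the clusters 249 of 3086 genes (8.07%) were called higher in cluster 5 and 105 (3.40%) lower, which the clustering itself sets apart.

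Smpd3, Edn1 and Prg4 were high in 1 cluster, while Ackr3 and Cmah were not limited to it. As a description, Smpd3 was at 494 CPM in members of cluster 5, 30.3 CPM in cluster 1 and 42.0 CPM in the rest, and Edn1 at 162, 2.16 and 5.79 CPM. Prg4 was at 245, 8.65 and 18.8 CPM and Fn1 at 3922, 1011 and 1477 CPM. Ptn, the growth factor called lower above, was at 27.1 CPM in cluster 5 but at 969 CPM in cluster 1. Against the other 1228 cells, members of cluster 1 alone had log2 folds of -0.85 for Prg4, -2.57 for Edn1, -0.14 for Anxa3, -0.28 for Emilin2 and 0.38 for Ptn, each opposite in sign to the value over all members. Smpd3, Nov, Cd248 and Creb5 were not called in that comparison, with log2 folds of 0.48, 0.45, 0.88 and 0.86. Of the 78 named or listed genes called over all members, 42 kept their call. Ackr3 and Cmah had log2 folds of 1.46 and 1.65 there, Cmah without a call, and Tagln and Igfbp3 had -7.54 and -5.35. Tagln was found in 1, Edn1 in 2 and Prg4 in 5 of the 147 members of cluster 1, so the sizes of these folds rest on few cells. C3 was at 7232 CPM in cluster 5 and 6112 CPM in cluster 1, and Ly6a at 2946 and 3430 CPM.

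Within a cluster fewer universal genes were higher and fewer myofibroblastic genes lower than over all members. Counts over all genes did not shrink in cluster 5, where 96 of 3090 were higher and 94 lower, beside 90 and 108 of 3074 over all members. In cluster 1, 24 of 2918 were higher and 47 lower. Members of cluster 5 against its 118 other cells had 11 of 22 universal genes higher and none lower, with a median log2 fold of 0.99, and 5 of 14 myofibroblastic genes lower. Members of cluster 1 against its 246 other cells had 4 of 18 universal genes higher with a median of 0.83, and of 8 myofibroblastic genes none was lower and 1 higher. Inflammatory CAF genes had medians of 0.33 and 0.36 in these comparisons, which were chosen after seeing the data.

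**Figure D4:**
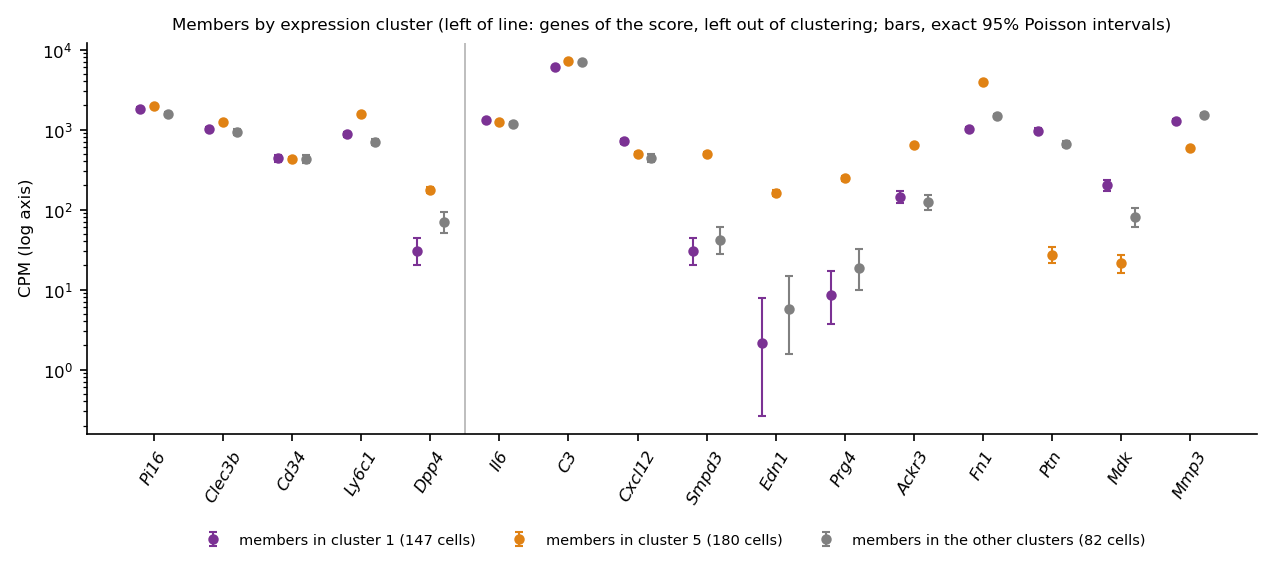
CPM (y, log axis) of 16 genes in members of cluster 1, cluster 5 and the other clusters, with exact Poisson intervals of 95%; genes left of the line belong to the score and were left out of clustering. Pi16, Clec3b and Cd34 overlap or lie close, Dpp4 is at 175 CPM in cluster 5 and 30.3 CPM in cluster 1, and Smpd3, Edn1 and Prg4 are high in cluster 5 alone.

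The next comparison set the members beside normal fibroblasts chosen by the same rule, 372 cells with a total of 4864485 UMIs. Of 3388 measured genes, 350 (10.3%) were higher in the tumour members and 291 (8.59%) lower, and the median log2 fold of all of them was -0.15. Scaling the libraries by the median ratio of genes gave 429 higher and 203 lower. Universal genes were lower and inflammatory genes higher. Of 27 measured universal and adventitial genes, 17 were lower, 1 was higher and the median log2 fold was -1.36. Of 20 inflammatory CAF genes, 14 were higher, none lower and the median was 2.13.

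Among the genes of the rule, Dpp4 was at 128 CPM in tumour members and 533 CPM in the normal cells, Clec3b at 1149 and 2779 CPM, and Cd34 at 432 and 1056 CPM. Pi16 was at 1885 and 3144 CPM and Ly6c1 at 1282 and 755 CPM, neither called. These values follow from cuts taken separately in each library. With the normal cells taken at or above the tumour limit, 571 in number, 15 of 27 universal genes were lower and 2 higher. Against all 1490 normal cells passing the gates, 5 of 25 were lower and 4 higher, with a median of -0.26, so the lower level of the list depended on taking the normal cells high in the score.

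Several universal genes had wide gaps to the normal cells. Sema3c was at 82.7 CPM in members and 763 CPM in the matching normal cells, a log2 fold of -3.20, and Anxa3, an annexin, at 217 and 1357 CPM. Dact2, a modulator of Wnt and TGF-beta signalling, was at 2.76 and 76.5 CPM, and Efhd1, a calcium-binding protein of mitochondria, at 10.3 and 246 CPM. Pcolce2, Cd55, Igfbp6 and Fbn1 were lower as well, with log2 folds of -1.81, -2.14, -1.94 and -1.26. Ackr3, Smpd3 and Efemp1 had log2 folds of -0.81, -0.88 and -0.92 and were not called. Ly6a and Il33 lay on the other side, at 0.38 and 0.75. Procr, the endothelial protein C receptor, was the 1 higher gene, at 156 CPM against 46.9 CPM. Pcsk6, at 123 and 916 CPM, and Igfbp5, a growth factor carrier at 75.9 and 1386 CPM, were lower outside the list.

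Inflammatory genes were higher by wide margins. Il6 was at 1246 CPM in members and 49.3 CPM (43.3 to 56.0) in the matching normal cells, 25.3-fold higher (22.2 to 28.9), and was detected in 83.9% and 16.9% of cells, or 74.0% and 5.15% after thinning. Ptx3 was 11.4-fold, Cxcl1 8.97-fold, Ccl2 8.40-fold and Cxcl12 5.57-fold higher. Of 10 measured IL-1, TNF and NF-kB response genes 9 were higher, with a median log2 fold of 2.26. Icam1, an adhesion molecule for leukocytes, was at 126 CPM against 8.43 CPM. Of 12 complement and acute phase genes 8 were higher and 1, C1qtnf2, was lower. C4b was at 1183 CPM against 45.2 CPM and C3 at 6950 CPM against 1813 CPM. Saa3, an acute phase protein, was at 328 CPM against 2.47 CPM but in 8.80% of members only. The folds of single genes by list are drawn in the plot of 13 gene lists.

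**Figure D5:**
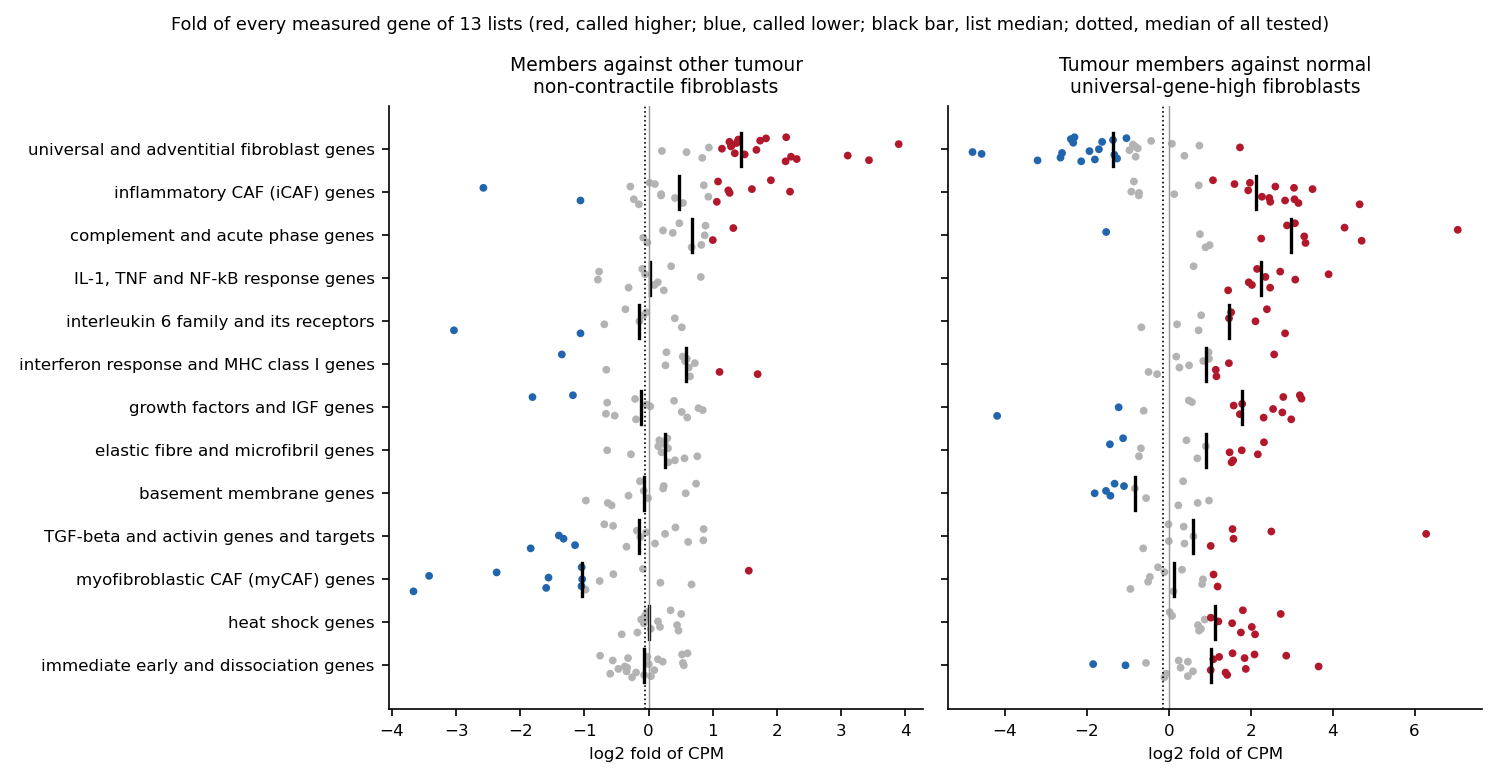
Log2 fold (x) of each measured gene of 13 lists (y) in members against other tumour non-contractile fibroblasts (left) and against matching normal cells (right); red and blue points were called higher and lower, black bars are list medians and dotted lines the median of all tested genes. The universal list has a median of 1.45 on the left and -1.36 on the right, and the inflammatory CAF list 0.47 and 2.13.

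Growth factor genes were also mostly higher in the tumour members. Of 15 measured growth factor genes, 10 were higher and 2 lower. Igf1, insulin-like growth factor 1, was at 1017 CPM against 128 CPM, Hgf at 75.9 CPM against 11.1 CPM and Fgf7 at 102 CPM against 17.5 CPM. Some of these calls depended on the normal cells taken. Mdk and Ptn had log2 folds of 2.80 and 3.20 here, but -0.44 and 0.13 against all normal cells passing the gates. Igf1 and Hgf stayed called there, at 2.07 and 1.96. Of 20 measured matrix proteases and inhibitors 8 were higher and 3 were lower, the median log2 fold being 0.32. Mmp3, the protease stromelysin-1, was 54.2-fold higher (43.4 to 68.6), at 880 CPM against 16.2 CPM, and Timp1, a protease inhibitor, 26.3-fold (21.4 to 32.6). Serpina3n, a secreted serine protease inhibitor, was detected in 90.7% of members at 953 CPM against 21.8 CPM. Runx1, a transcription factor, was at 198 CPM against 8.43 CPM.

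The largest folds against normal were those of single genes from different groups. Of 8 measured axon guidance and neural adhesion genes 3 were higher and 2 were lower, the median log2 fold being 0.44. Chl1, an adhesion molecule of neurons (chromosome 6, 103510586 to 103750211), was at 282 CPM (266 to 298) in 47.4% of members and was seen as 1 UMI in the matching normal cells, or 0.206 CPM. Rgs16, a regulator of G protein signalling, was at 95.4 CPM against 0.617 CPM, Nfasc, neurofascin, at 52.9 CPM against 0.617 CPM and Wisp2, a CCN family protein, at 96.1 CPM against 1.23 CPM. Ctla2a, Kng2 and Kcne4 were at 240, 69.6 and 84.8 CPM, each under 4 CPM in the normal cells. Prg4 was at 159 CPM against 2.88 CPM. At the lower end Krtdap, Chst1, Adamts16, Aif1l and Car8 had log2 folds between -4.30 and -2.93.

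Matrix genes divided by kind. None of 11 basement membrane genes was higher and 5 were lower, namely Lama2, Lama4, Lamb1, Lamc1 and Nid1, laminin chains and nidogen. Nid1 was at 1197 CPM against 2997 CPM. Of 13 elastic fibre genes 6 were higher, among them Lox, which crosslinks collagen and elastin, at 613 CPM against 123 CPM, and Ltbp4 and Loxl2 were lower. Of 9 small leucine-rich proteoglycan and hyaluronan genes 3 were higher and 2 were lower, the median being 0.29, and Bgn, biglycan, was at 2698 CPM against 391 CPM. None of 7 measured collagens outside the gate was higher and Col5a3 was lower, with a median of 0.08, while the gate gene Col1a1 was at 6373 CPM against 2082 CPM. Of 11 measured myofibroblastic genes only Postn, periostin, and Igfbp3 were higher, and Tagln was at 15.9 and 2.67 CPM, below the level to be measured in both. With every cell weighted the same, Postn and Igfbp3 had log2 folds of 0.93 and 0.57 and neither was called. Under the 12 settings planned against normal, the Igfbp3 call ended in 3 and the Postn call in 1.

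Signs of tissue handling and other cells moved with the same comparison. Of 14 heat shock genes 8 were higher and none lower, with a median log2 fold of 1.12, and of 21 immediate early genes 11 were higher and 2 lower, the median being 1.02. Ier3 was 12.6-fold and Hspa1a 4.30-fold higher, whereas Fos had a log2 fold of -0.11. Hmox1, heme oxygenase 1, and the metallothionein genes Mt1 and Mt2 were higher too, by 11.5-fold, 4.15-fold and 7.21-fold. Macrophage and monocyte markers summed to 9.19 CPM in tumour members and 305 CPM in the normal cells, and acinar and endocrine markers to 35.9 and 457 CPM. The part of digestion, sort, sex and RNA from other cells in the differences was not tested. When the top 25% was drawn anew among normal cells with Xist and no Y-linked UMI, an alternative chosen after seeing the data that gave 122 cells, 322 genes were higher and 287 lower, and the Il6 log2 fold was 4.07.

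The same contrast in the other cells is set beside these values. Between 1228 other tumour and 1118 other normal non-contractile fibroblasts, 342 of 3716 genes (9.2%) were higher in the tumour and 381 (10.3%) lower. There the log2 fold was 4.90 for Il6, 3.76 for Cxcl1, 3.91 for Ptx3, 7.53 for Chl1 and 3.43 for Mmp3, beside 4.66, 3.17, 3.51, 10.42 and 5.76 in the members. Values stood further apart for Cxcl12, at -0.28 in the other cells and 2.48 in the members, for C4b, at 2.75 and 4.71, for Cxcl14, at 0.53 and 3.06, and for Igfbp5, at 0.04 and -4.19. Cxcl12, Cxcl14 and Igfbp5 also differed between the normal groups. After thinning, Cxcl12 was found in 21.7% of matching and 46.8% of other normal cells. The shares were 1.90% and 50.3% for Cxcl14, and 57.7% and 9.29% for Igfbp5. Against all normal cells passing the gates, the Cxcl14 log2 fold of the members was -1.46. The list of myofibroblastic CAF genes had 9 of 16 genes higher in the other cells and 2 of 11 in the members, with medians of 1.19 and 0.12. The difference between these comparisons was not tested, since each library is a single sample.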

How the data were processed

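Each group had 1 library. The authors deposited UMI counts, not normalised, of 27998 genes in each barcode, made with Cell Ranger 3.1.0 on mm10 per the submitters' processing notes. No cell annotation was used. Members and gene lists were chosen with earlier results of these data known. Cells needed 500 genes, 1000 UMIs and at most 10% mitochondrial UMIs. Further gates per 10000 UMIs were keratins under 10, Thbs4 under 5 and Acta2, Cthrc1 and Tnc under 10, with at most 1 UMI of Ptprc, Pecam1 and Cdh5. Counts were summed over cells, and folds were given exact intervals for 2 Poisson counts at 95% (scipy 1.17.1). The calculation was tested on simulated data. Clusters used 2000 variable genes, 30 components, 15 neighbours and Leiden at 0.5 (scanpy 1.11.5, igraph 0.11.9). Doublets were kept. Scrublet marked 0.0777% of tumour and 2.67% of normal cells, and leaving out the 53 and 170 highest scores was an alternative. Gene positions are GENCODE vM21 on GRCm38. Genes were named as the 12 highest and 12 lowest called within the tumour and the 10 highest and 10 lowest against normal, with a UMI in 10% of cells, leaving out mitochondrial, ribosomal, sex-linked, rule and other-cell genes, plus list members. Alternatives changed weighting, scaling, filters, cut and score. Up to 8 called and 4 abundant uncalled genes of a list could be named, while other-cell markers serve as checks, and some further genes, such as Fap, Tgfbr2 and the members of a list by cluster, were named after their values were seen. Some genes that the rule names are not reported here.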

Additional observations from a re-analysis of the deposited data

How the results depend on the processing

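Against the other tumour cells, the 90 higher and 108 lower genes became 143 and 217 with a minimum of 20 CPM, where more genes are tested. With members of cluster 1 only, 178 genes were lower. With members of cluster 5 only, 148 were higher. Within cluster 1 there were 24 higher and 47 lower, and within cluster 5 there were 96 and 94, both with fewer cells. Of 78 named or listed genes called there, between 59 and 78 kept their call under each of 16 alternatives, the fewest with the top 50% by score, where Cxcl13 turned to a log2 fold of 0.22. With members of cluster 1 only, Anxa3, Edn1, Emilin2, Prg4 and Ptn turned to -0.14, -2.57, -0.28, -0.85 and 0.38. Edn1 was found in 2 of those 147 members. Without clusters 2 and 4 among the other cells, Col12a1 and Col8a1 turned to 0.20 and 0.20. Within cluster 1, Col12a1, Cxcl13, Ptger3 and Wisp1 turned to 0.0002, 3.38, 0.65 and 0.38, and within cluster 5, Col8a1, Ctgf, Eng and Lpl turned to 0.31, 0.45, 0.070 and 0.46. In these 5 comparisons by cluster between 14 and 72 of the 78 genes kept their call. When members were chosen on a random 0.5 of the UMIs and measured on the rest, 92 genes were higher and 110 lower.

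Against normal, 350 higher and 291 lower became 534 and 507 with a minimum of 20 CPM, and 517 were lower with members of cluster 1 only. Of 181 genes called, between 123 and 181 kept their call, the fewest with all normal cells passing the gates. There Cadm3, Cxcl14, Emilin1, Ifitm1, Mdk and Nrp1 turned to 0.11, -1.46, -0.12, -1.11, -0.44 and -0.10. With members of cluster 1 only, Fabp4, Figf, Igfbp3, Itga5 and Srxn1 turned to -2.39, -0.61, -0.83, -0.48 and -0.048, and with cluster 5 only Ptn turned to -0.40. The cause was not tested. The alternatives by cluster and the same-sex cells were chosen after seeing the data. The split by sex within the tumour could not be run, since its fibroblasts had Xist and next to no Y-linked UMIs. No paired analysis was possible because each group has 1 library. A count of 1 UMI is 0.230 CPM in members, so levels near it cannot be told from 0.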

Other observations

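Ptgs2, the inducible cyclooxygenase, was at 879 CPM in tumour members and 314 CPM in matching normal cells, and Ptgs1, the constitutive one, at 40.7 and 211 CPM. Within the tumour, the adhesion genes Ncam1, at 18.6 CPM against 98.4 CPM, and Cdh11, at 153 CPM against 390 CPM, and the guidance cue Slit2, at 80.4 CPM against 167 CPM, were lower in members than in the other cells, and Efna5, an ephrin, was higher at 57.0 CPM against 18.2 CPM. Apod, a lipid carrier, at 403 CPM in members, 607 CPM in other tumour cells and 33.1 CPM in matching normal cells, was called higher against the matching normal cells and not against the other tumour cells. Adm, adrenomedullin, a vasodilator peptide, was at 232 CPM in members, 83.6 CPM in other tumour cells and 128 CPM in matching normal cells.

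Some single genes had values in members that stood between the other groups or outside them. Ch25h, which makes an oxysterol, was at 12.6 CPM in members, 59.8 CPM in other tumour cells and 1.03 CPM in matching normal cells. Slc7a2, a transporter of arginine, was at 7.81, 91.0 and 1.23 CPM, and at 692 CPM in the immune cells of the tumour library. Chodl, chondrolectin, had 8.27 CPM in members, 55.5 CPM in other tumour cells and no UMI in matching normal cells. Folds count such a 0 as 3 UMIs, or 0.617 CPM in those cells. Cthrc1, limited by the rule, was at 91.1 CPM in members of cluster 5 and 3.24 CPM in members of cluster 1, a pair picked after the values were seen. Tmem204, Ctsc and Tnfrsf19 were 5.91-fold, 5.16-fold and 4.44-fold lower in members than in the other tumour cells.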
